A study of Odorrana tormota with 4 samples.

Results

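Transposable elements are DNA segments that can move or copy themselves within a genome. The brain transcriptome of the concave-eared torrent frog *O. tormota* was searched for unigenes, the assembled transcripts used in place of genes, that carry the sequence of such elements. A unigene of 1000 bases or more was taken when the description of its best Swiss-Prot match contained "transpos", "mobile element" or "LINE-1". This gave 1508 of the 197684 unigenes in the table, or of the 36696 unigenes of that length. The choice used the description and the length, not the level. By the words of the description, 117 of them were DNA transposons, 1208 were LINEs, 180 were LTR retrotransposons and 3 were no elements. These 3 matched Midline-1, a ubiquitin ligase whose name contains the letters searched for, and summed to between 11.1 FPKM in F1 and 15.8 FPKM in M1.

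Total RNA from the brains of 12 adult wild frogs was combined into 4 pools, in equal amounts per frog within a pool. F1 and F2 came from 2 females each and M1 and M2 from 4 males each (n = 2 pools per sex). Polyadenylated RNA was then selected from each pool for its library. No treatment or genetic change was applied to either sex. Female pools held fewer frogs than male pools, so sex and frog number cannot be told apart. Levels are given in FPKM, fragments scaled to unigene length and to library size, so that levels of different unigenes can be set side by side. The paper reports nearly equal numbers of clean reads for the pools. The reads behind each single value are not given, because the values are estimated FPKM and read counts were not used here. Each value is that of a pool, so p-values measure the spread between pools, not between frogs.

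DNA transposons move by excision and reinsertion, which a transposase carries out. LINEs copy themselves through RNA: ORF1 encodes an RNA-binding protein and ORF2 an endonuclease and reverse transcriptase. LTR retrotransposons also pass through RNA and encode Gag and Pol proteins between long terminal repeats. Most copies in vertebrate genomes are damaged, and their sequence can also be transcribed as part of a host transcript. The genome of the frog *Xenopus tropicalis* is known for many DNA transposons, while LINE-1 prevails in mammals. Copies of 1 family resemble each other, and reads from them can be shared out among several unigenes, so the level of a single unigene is less certain than that of its family.

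The elements fell into many weakly expressed LINEs and few abundant DNA transposons. LINEs made up 80.1% of the 1508 unigenes and 20.1% of their summed FPKM (mean of the 4 pools), whereas DNA transposons made up 7.76% of the unigenes and 73.0% of the FPKM. LTR retrotransposons held 11.9% of the unigenes and 6.65% of the FPKM. The median level of a DNA transposon was 6.47, 6.46, 6.16 and 5.99 FPKM in F1, F2, M1 and M2. The median LINE was listed at 0.430, 0.387, 0.440 and 0.362 FPKM in the same order, and the median LTR retrotransposon at 0.665, 0.621, 0.725 and 0.640 FPKM. All unigenes of 1000 bases or more had medians of 1.98, 2.10, 2.18 and 1.94 FPKM. The median DNA transposon thus lay above, and the median LINE and LTR retrotransposon below, the median unigene in each of the 4 pools.

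**Figure D1:**
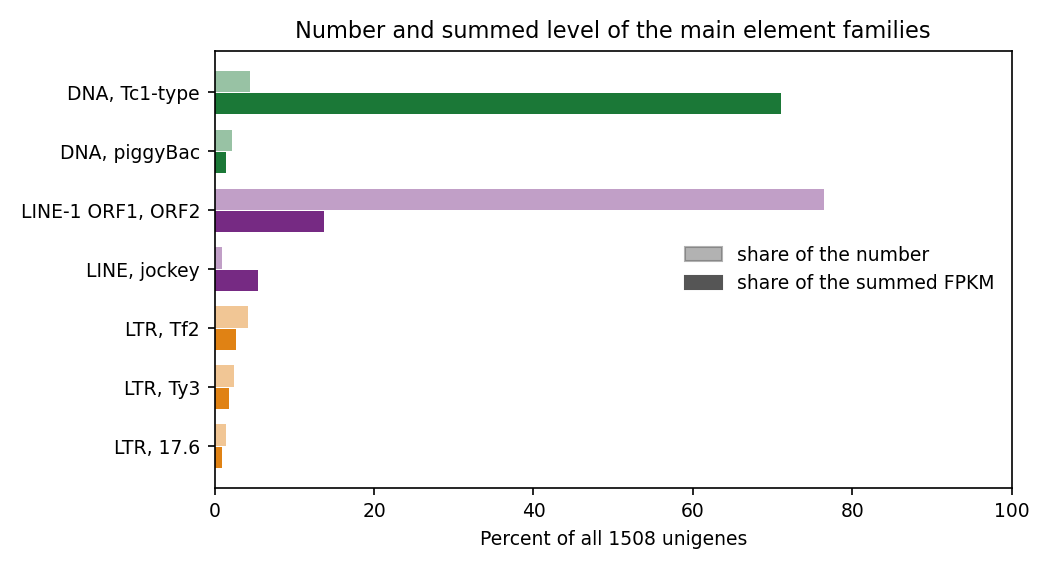
Share of each main element family in the number of the 1508 unigenes (pale bars) and in their summed FPKM, mean of the 4 pools (dark bars), in percent. Tc1-type transposases held 71.0% of the FPKM, and LINE-1 held most of the unigenes.

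The summed level was concentrated in few unigenes. The most abundant unigene alone held 10.1% of the FPKM of all 1508, the top 5 held 36.7%, the top 20 held 62.3% and the top 100 held 84.4%. Of the top 20, 18 were DNA transposons, all of them of Tc1 type, and 2 were LINEs. Each of the 1508 unigenes came from an assembly subcomponent of its own, the unigene name without its last part. Whole components could be shared, as by comp243083_c0_seq1 and comp243083_c1_seq2. Their lengths ran from 1000 to 8980 bases with a median of 1670. The median level rose with length, from 0.314 FPKM for the 622 unigenes under 1500 bases to 1.18 FPKM for the 78 of 5000 bases or more. Over all unigenes the corresponding medians were 0.881 and 7.12 FPKM.

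The best match in the NR protein database was a fish protein for 808 of the 1508 unigenes, a frog or other amphibian protein for 646, a reptile protein for 16 and a bird protein for 5, and 33 had none. The leading genera were *Xenopus* with 612 unigenes and *Larimichthys*, a fish, with 432. The NR entry was itself named as an element for 747 unigenes and was uncharacterized for 671. Another protein was named for 57, the 3 Midline-1 unigenes among them. Of these 57, 13 LTR-matched unigenes had an NR entry called phosphatidylinositol-glycan-specific phospholipase D, and 11 LINE-matched ones had an entry called SWI/SNF subfamily D member 3. A GO annotation was given for 1429 unigenes (94.8%), with RNA-directed DNA polymerase activity, the work of a reverse transcriptase, on 1250 of them.

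Tc1-type transposases, first known from nematodes and widespread in fish and frogs, were the most abundant elements. The 66 unigenes with a match to Tcb1, Tcb2, Tc1 or Tc3 summed to 4895, 4723, 5075 and 4772 FPKM in F1, F2, M1 and M2, and 62 of them passed the level filter of at least 1 FPKM in at least 2 pools. Tcb1 alone, with 38 unigenes, held 54.6% of the FPKM of all 1508. Its highest unigene, comp244865_c1_seq1 (1661 bases, NR match TC1-like transposase of carp), stood at 717, 669, 721 and 660 FPKM in F1, F2, M1 and M2. It ranked 35 among all unigenes of 1000 bases or more by mean FPKM. The difference between the sexes was 0.01 (SE 0.13) on the log2 scale, smaller than the gap between the pools of either sex.

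The Tcb1 unigenes comp231079_c1_seq2 and comp239456_c3_seq1 followed. The former was listed at 695, 657, 714 and 627 FPKM in F1, F2, M1 and M2, and the latter at 387, 510, 505 and 414 FPKM. In the latter the gap between F1 and F2 was the whole range of the 4 pools, and the sexes overlapped. Tc1 had 19 unigenes, led by comp245341_c2_seq5 at 182, 173, 185 and 165 FPKM. The sexes overlapped there too.

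Other Tc1-type unigenes differed more between pools. The Tcb2 unigene comp243342_c4_seq2 was listed at 115, 128, 172 and 192 FPKM in F1, F2, M1 and M2, so the sexes did not overlap and males were higher. Its difference was -0.58 (SE 0.12) on the log2 scale, female minus male, with an adjusted p of 0.193 in limma, short of the threshold of 0.05. The Tc3 unigene comp240821_c2_seq1 was listed at 11.5, 25.1, 28.9 and 57.4 FPKM in F1, F2, M1 and M2. The sexes did not overlap there, but the pools of 1 sex also lay apart (log2 difference -1.23, SE 0.53, adjusted p = 0.474 in limma). A second Tc3 unigene, comp243888_c1_seq1, stood at 8.85, 7.98, 11.4 and 12.0 FPKM, also without overlap (adjusted p = 0.35 in limma).

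The other DNA transposons were far less abundant. The 32 piggyBac unigenes summed to 119, 91.4, 95.6 and 89.7 FPKM in F1, F2, M1 and M2. piggyBac is a cut-and-paste element first known from a moth, and 22 of the 32 unigenes had as NR match Uribo1 or Uribo2, piggyBac elements of *Xenopus*. The highest, comp209231_c0_seq3 (4420 bases), was listed at 27.0, 19.6, 14.6 and 25.9 FPKM, with the sexes overlapping. Its Swiss-Prot and NR matches both named piggyBac transposable element-derived protein 5, a host gene descended from such an element. A Uribo1-like unigene, comp230034_c1_seq2, varied most among the 109 unigenes with a mean of at least 5 FPKM: it was listed at 12.7, 6.46, 4.94 and 0.210 FPKM in F1, F2, M1 and M2. Here M2 stood apart from the other 3 pools, and the sexes did not overlap (adjusted p = 0.518 in limma).

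The pogo group held 7 unigenes, led by comp241365_c1_seq3 at 7.46, 7.50, 8.82 and 11.6 FPKM in F1, F2, M1 and M2. It matched a pogo-derived protein with a zinc finger, a host gene descended from a transposase. The highest of 8 Tigger unigenes, comp230914_c0_seq1, was listed at 7.17, 8.35, 6.16 and 5.99 FPKM (log2 difference 0.33, SE 0.16, adjusted p = 0.534 in limma). The sexes did not overlap in either, with the pogo unigene higher in males (log2 difference -0.41, SE 0.19, adjusted p = 0.499 in limma), and neither difference passed the test.

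LINE-1 was the most frequent element, and most of its unigenes were weakly expressed. ORF2 accounted for 1076 unigenes and ORF1 for 76, and these 1152 held 13.8% of the FPKM. ORF2 unigenes summed to 920, 840, 973 and 873 FPKM in F1, F2, M1 and M2, and ORF1 unigenes to 41.8, 39.4, 47.0 and 36.5 FPKM. The median ORF2 unigene was listed at 0.430, 0.377, 0.434 and 0.362 FPKM. Of the 1076, 206 passed the level filter, against 6 of the 76 with ORF1. The sums in both sexes were higher in the pool numbered 1 than in the pool numbered 2.

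Few LINE-1 unigenes reached high levels. comp242184_c6_seq3 (3206 bases) led the ORF2 group at 49.2, 46.5, 54.8 and 50.5 FPKM in F1, F2, M1 and M2, followed by comp236980_c0_seq3 at 20.2, 18.8, 16.0 and 19.7 FPKM. The sexes did not overlap in the former (log2 difference -0.14, SE 0.11, adjusted p = 0.696 in limma) and overlapped in the latter. The third, comp240297_c1_seq3, was listed at 6.90, 12.7, 28.5 and 18.8 FPKM in F1, F2, M1 and M2. The male pools were the higher ones (log2 difference -1.25, SE 0.38), with an adjusted p of 0.340 in limma. The longest unigene of the set, comp243478_c2_seq1 (8980 bases), matched LINE-1 ORF2 and stood at 4.52, 8.31, 10.3 and 9.25 FPKM. F1 was the lowest pool, and both female pools lay below both male pools (log2 difference -0.62, SE 0.32, adjusted p = 0.548 in limma). Among ORF1 unigenes the highest, comp245240_c0_seq3, was listed at 3.95, 4.61, 3.79 and 4.90 FPKM.

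LINEs outside LINE-1 were few and more abundant. The 28 unigenes with a match to jockey and its relatives, TX1, R1 or R2 held 6.17% of the FPKM, and 19 of them passed the level filter. Jockey, a LINE first described in *Drosophila*, gave 13 unigenes with sums of 394, 353, 402 and 343 FPKM in F1, F2, M1 and M2. Its 2 leading unigenes were the only LINEs among the top 20 elements. comp245501_c3_seq1 was listed at 144, 124, 143 and 125 FPKM, and comp245099_c0_seq1 at 143, 127, 140 and 120 FPKM. Both had ORF2 of a turtle as NR match, and in both the pool numbered 1 lay above the pool numbered 2 in each sex, while the sexes differed by 0.00 (SE 0.14) and 0.06 (SE 0.14) on the log2 scale.

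TX1, a LINE described in *Xenopus laevis*, had 9 unigenes, the only ones whose Swiss-Prot match came from an amphibian. The leading TX1 unigene, comp245493_c0_seq1 (6393 bases), was listed at 10.45, 10.19, 9.34 and 10.02 FPKM in F1, F2, M1 and M2. R1 and R2, which insert into ribosomal RNA genes in insects, were matched by 3 unigenes. The highest, comp245110_c0_seq5, stood at 25.2, 25.5, 23.7 and 21.8 FPKM. Both female pools lay above both male pools for the leading TX1 unigene and for this one. The log2 difference was 0.09 for the TX1 unigene (SE 0.13, adjusted p = 0.851 in limma). It was 0.15 for comp245110_c0_seq5 (SE 0.11, adjusted p = 0.674 in limma).

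The 180 LTR retrotransposons summed to 478, 405, 490 and 451 FPKM in F1, F2, M1 and M2. Most matched elements of the Ty3 (gypsy) group, among them Tf2 of fission yeast with 64 unigenes, Ty3 of budding yeast with 36 and 17.6 of *Drosophila* with 21. Tf2 unigenes summed to 197, 162, 209 and 177 FPKM. The highest, comp245470_c0_seq1 (5134 bases), was listed at 70.1, 53.2, 78.0 and 57.3 FPKM, with the gap inside each sex larger than that between the sexes. The second Tf2 unigene by mean level, comp245286_c0_seq1, stood at 16.5, 20.3, 23.3 and 22.8 FPKM, with males above females (log2 difference -0.32, SE 0.15, adjusted p = 0.498 in limma).

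Ty3 unigenes summed to 131, 111, 128 and 129 FPKM in F1, F2, M1 and M2, and 17.6 unigenes to 62.9, 60.1, 69.8 and 59.7 FPKM. comp240853_c0_seq1 led the Ty3 group at 45.4, 44.2, 49.6 and 51.2 FPKM, with males above females (log2 difference -0.17, SE 0.10, adjusted p = 0.589 in limma). Its NR match was a fish protein named thy-1 membrane glycoprotein, so the 2 databases name it differently. comp245518_c0_seq3 led the 17.6 group at 19.97, 20.3, 20.3 and 17.1 FPKM. The copia-type element TNT 1-94 of tobacco was matched by 5 unigenes, led by comp243912_c5_seq1 at 27.7, 16.4, 20.9 and 26.3 FPKM. That unigene had as NR match a snake protein named GATA zinc finger domain-containing protein 1, so the 2 databases name it differently too. Its sexes overlapped.

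Some descriptions name host genes that descend from elements. They covered 101 of the 1508 unigenes and 2.62% of the FPKM. The 101 include all 32 piggyBac, 8 Tigger and 7 pogo unigenes and 1 THAP9 unigene, which are also counted above as DNA transposons. The piggyBac unigenes held 1.44% of the FPKM. Among them, 11 had Uribo1 and 11 had Uribo2 of *Xenopus* as NR match, so the host gene name is not settled for these. PEG10 and RTL1, which in mammals act in the placenta, were named for 15 and 5 unigenes, GIN1 for 5 and L1TD1, an RNA-binding protein of mammalian stem cells, for 28. The highest PEG10 unigene, comp224974_c0_seq1, was listed at 4.48, 5.08, 6.29 and 5.03 FPKM in F1, F2, M1 and M2. The highest L1TD1 unigene, comp244135_c0_seq1, stood at 0.302, 0.560, 1.98 and 1.29 FPKM, without overlap of the sexes (adjusted p = 0.316 in limma). Such a name rests on the best Swiss-Prot match alone.

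Nearly all elements were listed above 0 in each pool: 97.6%, 98.5%, 97.1% and 97.2% in F1, F2, M1 and M2, and 1398 of 1508 in all 4. This is not particular to elements. Of all unigenes of 1000 bases or more, 94.4%, 95.3%, 98.9% and 98.8% were above 0, and 33991 of 36696 in all 4 pools. At 1 FPKM or more the classes came apart. DNA transposons reached that level in 79.5%, 72.6%, 79.5% and 74.4% of cases in F1, F2, M1 and M2, LTR retrotransposons in 37.8%, 35.6%, 37.2% and 36.1%, and LINEs in 21.1%, 17.6%, 21.3% and 17.5%. The order of the classes was the same in every pool. All unigenes of 1000 bases or more reached it in 62.0%, 62.6%, 64.8% and 62.7%. In each class the share was higher in F1 than in F2 and in M1 than in M2.

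**Figure D2:**
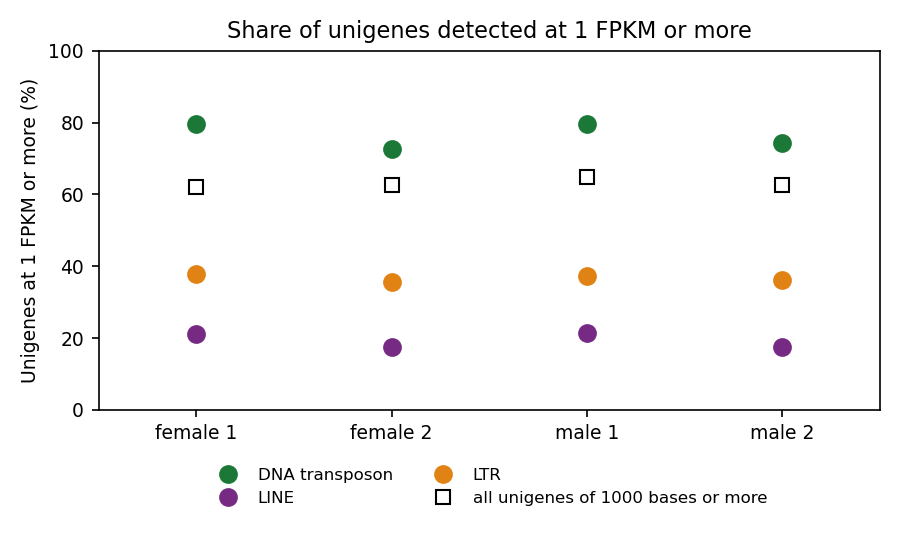
Share of unigenes at 1 FPKM or more in each pool, in percent, for DNA transposons, LINEs and LTR retrotransposons (filled circles) and for all unigenes of 1000 bases or more (open squares). DNA transposons lay between 72.6% and 79.5% and LINEs between 17.5% and 21.3% in the 4 pools.

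The summed level of the 1508 unigenes was 6971, 6563, 7198 and 6679 FPKM in F1, F2, M1 and M2, or 1.04%, 0.936%, 1.003% and 0.959% of the FPKM of each pool. The sex means were 6767 ± 289 FPKM in females and 6938 ± 367 FPKM in males (SD, n = 2). Females stood at -0.04 on the log2 scale relative to males for the sum, at -0.03 for DNA transposons, -0.04 for LINEs and -0.09 for LTR retrotransposons. These differences were smaller than the gaps within a sex. The sign of the first turned without F2 (0.0069), without M1 (0.019) and on scaling to the FPKM of each pool (0.011), and the class differences turned too, DNA transposons without M1 (0.016) and on that scaling (0.017), LINEs without F2 (0.033), without M1 (0.051) and on that scaling (0.011), and LTR retrotransposons without F2 (0.023). With 2 pools against 2, an exact permutation test cannot go below a two-sided p of 0.333, so no test of a single sum was made.

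**Figure D3:**
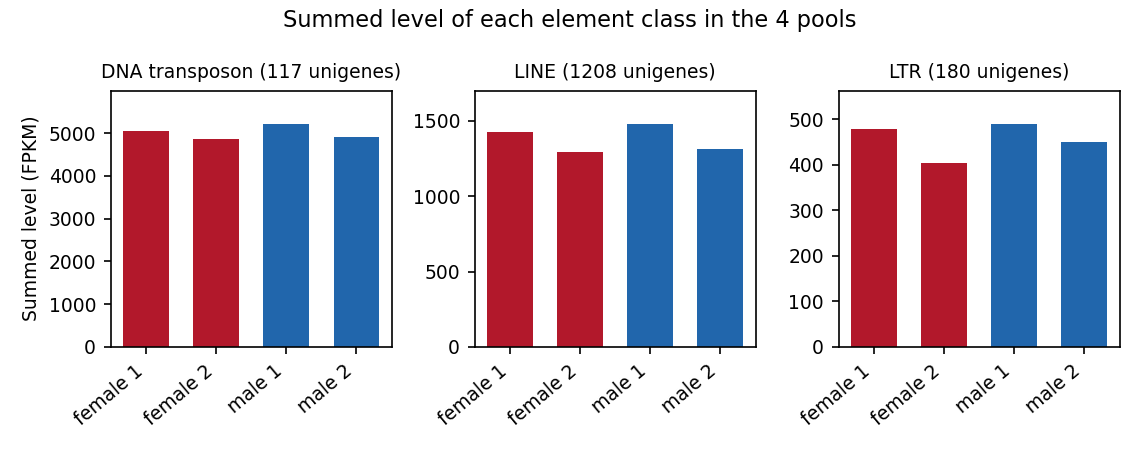
Summed FPKM of the DNA transposons, LINEs and LTR retrotransposons in each pool, females in red and males in blue. In each class the pool numbered 1 lies above the pool numbered 2 of the same sex, and the ranges of the sexes overlap.

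The pools of 1 sex differed more than the sexes did. The sum in F1 was 1.06 times that in F2 and the sum in M1 was 1.08 times that in M2, while for all unigenes of 1000 bases or more the same ratios were 0.975 and 1.01. The ratios were 1.04 and 1.06 for DNA transposons, 1.10 and 1.13 for LINEs and 1.18 and 1.09 for LTR retrotransposons. Counted by unigene, 888 of 1508 were higher in F1 than in F2 (58.9%, against 50.9% of all unigenes of 1000 bases or more) and 891 were higher in M1 than in M2 (59.1%, against 54.9%). Both held for 521 (34.5%, against 26.4%), and the reverse of both for 243 (16.1%, against 17.5%). Over 2-fold gaps within a sex were counted too. Among the 396 elements that passed the level filter, 21 were over 2-fold higher in F1 than F2 (5.3%, against 6.42% of all unigenes tested) and 14 the other way (3.54%, against 7.88%). Between the male pools, 15 were over 2-fold higher in M1 than M2 (3.79%, against 7.11%) and 3 the other way (0.758%, against 4.51%). The pool numbers are names given by the study, which states no batch for them, and what the pools numbered 1 share was not tested.

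To compare females with males, limma was run on log2(FPKM + 0.5) of the 51457 unigenes of any length with at least 1 FPKM in at least 2 pools. Of the 1508 elements, 396 passed this filter and 1112 did not. Of the 396, 257 reached 1 FPKM in all 4 pools, 14 passed through the female pools alone and 22 through the male pools alone. At an adjusted p under 0.05, 0 of the 396 were called, and the same held for all unigenes (percent called 0.0, smallest adjusted p = 0.110 in limma with Benjamini-Hochberg adjustment). limma without a trend called 1251 of all unigenes and 1 element.

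At an unadjusted p under 0.05, 7 elements were higher in females (1.77% of 396, against 4.21% of all unigenes tested) and 28 were higher in males (7.07%, against 7.91%). Under quantile normalization these counts were 10 and 22. Both female pools lay above both male pools for 74 elements (18.7%, against 19.2%), and both male pools above both female pools for 105 (26.5%, against 22.8%). Restricted to unigenes without a bird protein as NR match, the former shares were 18.6% and 19.3%, and the latter 26.5% and 22.3%. Means of FPKM + 0.5 were over 2-fold higher in females for 7 elements (1.77%, against 3.32%) and in males for 22 (5.56%, against 6.71%). The shares of the 396 elements were thus near or below those of all unigenes tested, save that of elements with both male pools on top. The elements are all of 1000 bases or more, but only 23708 of the 51457 unigenes tested are. The shares were not recounted for those 23708 alone. At that length without a level filter, the over 2-fold share of elements was the higher one on the female side (3.58%, against 2.15%). On the male side it was the lower one (3.25%, against 4.7%), with the limit on bird matches given below. By class, both male pools lay above for 17 of 90 DNA transposons tested (18.9%) and 65 of 234 LINEs (27.8%). For LTR retrotransposons it was 21 of 69 (30.4%), against 22.8% of all unigenes tested. Both female pools lay above for 22 DNA transposons (24.4%), 45 LINEs (19.2%) and 7 LTR retrotransposons (10.1%), against 19.2%.

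The median difference, female minus male on the log2 scale, was -0.05 over the 396 elements and -0.02 over all 51457 unigenes. It was 0.05 for DNA transposons, -0.07 for LINEs and -0.13 for LTR retrotransposons, and 47 of the 69 LTR retrotransposons tested lay on the male side (68.1%, against 51.9% of all unigenes tested). Of all 180 LTR retrotransposons, with no level filter, 100 did (55.6%, against 51.4% of all unigenes of 1000 bases or more), at a median of -0.063. The median for DNA transposons turned sign without F1 (-0.044) and without M2 (-0.039), and that for LINEs under quantile normalization (0.011) and without F2 (0.017). Over all 1508 elements without the level filter the median was -0.01, as it was over all 36696 unigenes of that length. There, both female pools were on top for 284 elements (18.8%, against 19.9% of those unigenes) and both male pools for 321 (21.3%, against 24.1%). Over 2-fold gaps between the means were seen for 54 elements on the female side (3.58%, against 2.15%) and 49 on the male side (3.25%, against 4.7%). Those 36696 unigenes include 933 with a bird protein as NR match, 836 of them at 0 in both female pools. Only 5 of the 1508 elements had such a match. The shares without a level filter were not recounted without bird matches, so the male-side shares cannot be compared on equal terms. The sign of the median over the 396 turned under quantile normalization (0.015) and without F2 (0.041).

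**Figure D4:**
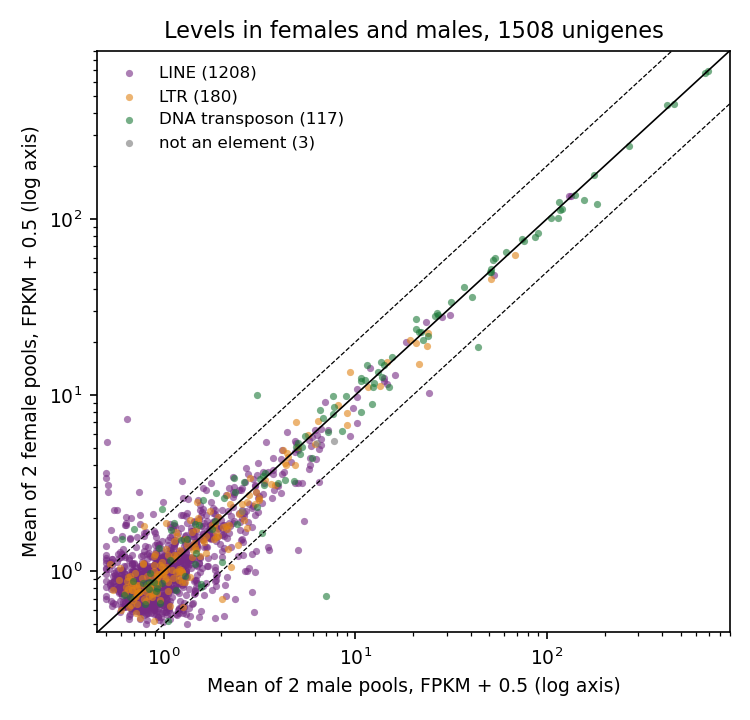
Mean of the 2 female pools against the mean of the 2 male pools for the 1508 unigenes, in FPKM + 0.5 on log axes, coloured by class. The solid line marks equal levels and the dashed lines a 2-fold difference. Abundant unigenes lie along the line, and 54 and 49 unigenes, nearly all of low level, lie beyond the dashed lines on the female and the male side.

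The 6 elements with the smallest p among those higher in males were 1 Tc1 and 5 LINE-1 ORF2 unigenes. All but comp228224_c2_seq7 had passed the level filter through the male pools alone, so that only a high level in males brought these 5 into the test. The Tc1 unigene, comp238179_c0_seq11 (1726 bases), was listed at 0, 0.455, 7.27 and 5.88 FPKM in F1, F2, M1 and M2, and had the lowest p of all 396 (adjusted p = 0.110 in limma). Among the LINE-1 unigenes, comp228224_c2_seq7 stood at 1.27, 1.60, 5.28 and 4.54 FPKM and comp244235_c1_seq2 at 0.525, 0.456, 2.38 and 2.58 FPKM. Their log2 differences were -1.49 (SE 0.24) and -1.59 (SE 0.26), both with an adjusted p of 0.110 in limma. comp228584_c1_seq5, comp232762_c3_seq2 and comp239846_c0_seq1 had log2 differences of -1.88, -1.73 and -1.44, and in none of the 6, chosen by p, did the sexes overlap. comp244235_c1_seq2, tested through the male pools alone, was the 1 element that limma without a trend called (adjusted p = 0.0473).

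Among those higher in females, 5 of the 6 elements with the smallest p were LINE-1 and 1 matched the LTR element 412. All 6 had passed the level filter through the female pools alone. The ORF1 unigene comp209591_c0_seq1 (2072 bases) was listed at 1.92 FPKM in F1, 4.33 in F2 and 0 in both male pools (adjusted p = 0.110 in limma). The ORF2 unigene comp212917_c0_seq1 (3788 bases) stood at 2.32, 7.53, 0.00927 and 0 FPKM in F1, F2, M1 and M2 (adjusted p = 0.136 in limma). Both were at or near 0 in males, and F2 was well above F1 in each. The remaining LINE-1 unigenes, comp241978_c1_seq11, comp221501_c3_seq1 and comp240236_c1_seq2, had log2 differences of 1.47, 1.06 and 1.05. The 412 unigene, comp237186_c0_seq7, was listed at 1.59, 1.14, 0.486 and 0.569 FPKM (log2 difference 0.85, SE 0.29).

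**Figure D5:**
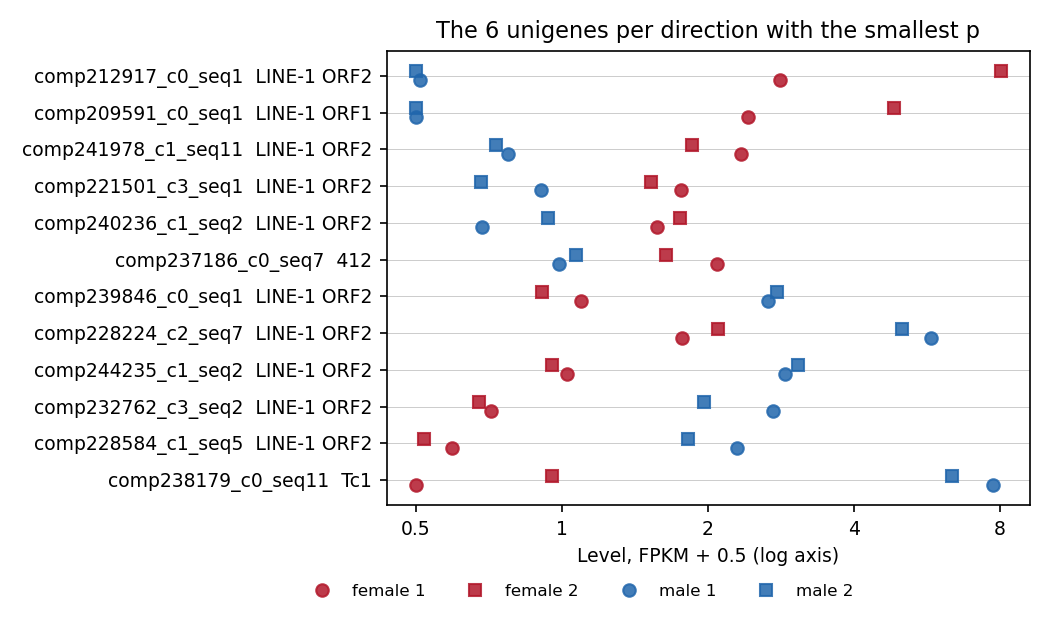
Levels in FPKM + 0.5 (log axis) of the 6 elements per direction with the smallest p, with females in red, males in blue, circles for the pools numbered 1 and squares for those numbered 2. The 12 were chosen by their p, which favours pools that do not overlap, and 11 of them had passed the level filter through 1 sex alone. No adjusted p was under 0.110.

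Elements listed at 0 in both pools of 1 sex were few. Of the 1508 elements, 14 were listed at 0 in both male pools and 2 in both female pools. Of all 36696 unigenes of 1000 bases or more, 159 were at 0 in both male pools and 1481 in both female pools. By share, elements were at 0 in both male pools more often than those unigenes, and in both female pools less often. A bird protein was the NR match of 836 of the 1481 and of none of the 2 elements. All 14 were LINEs, 12 of them LINE-1 ORF2, 1 ORF1 and 1 L1TD1. Only comp209591_c0_seq1 of the 14 reached 1 FPKM in both female pools. In comp189630_c0_seq1 the level was 5.65 FPKM in F1 and 0.111 in F2, so most of its signal came from 1 pool. Several of the 14 were also at 0 in 1 female pool, such as comp98489_c0_seq3 at 1.77 FPKM in F1 and 0 in F2. The latter kind were found in 1 pool of 2 frogs, and whether they go with sex was not tested.

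Some elements were found in 1 pool only. At least 1 FPKM in 1 pool and under 0.1 FPKM in the other 3 was seen for 7, 7, 1 and 4 elements in F1, F2, M1 and M2, or 0.464%, 0.464%, 0.0663% and 0.265% of the 1508. Of all unigenes of 1000 bases or more, 0.123%, 0.185%, 0.210% and 0.0654% did so. The leading ones were LINE-1 ORF2 unigenes in each pool, such as comp182339_c0_seq1 at 4.64 FPKM in F1 and comp233408_c1_seq1 at 5.19 FPKM in F2, both under 0.1 FPKM elsewhere. F1 and F2 held 2 frogs each and M1 and M2 held 4 each, and which frog carried such RNA cannot be told from pools.

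At high levels the elements were even across the pools. Among the 47 elements that averaged 20 FPKM or more, the median ratio of the highest to the lowest pool was 1.19, and the ratio was under 1.25 for 30 (63.8%). Among all 3682 unigenes of 1000 bases or more at that level the median ratio was 1.29, and 40.9% were under 1.25. The 36 Tc1-type unigenes at that level had a median ratio of 1.19, the 6 LINEs 1.19 and the 4 LTR retrotransposons 1.44. At means from 5 FPKM upwards the median was 1.29 for 109 elements and 1.35 for 12225 unigenes. Over 2-fold between the highest and the lowest pool was seen for 7 of the 109 (6.42%, against 9.56% of those unigenes).

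Genes known to silence or restrict transposable elements in animals were read from the same fit, with the most abundant unigene of each gene. Of 53 listed gene symbols, FAM208A and TASOR counted separately, 43 were found and 24 passed the level filter. Of these 24, 0 passed the adjusted threshold, 0 had an unadjusted p under 0.05 with the higher level in females (against 4.21% of all unigenes tested) and 2, DNMT1 and GTSF1, with the higher level in males (8.33%, against 7.91%). The median difference was -0.06 on the log2 scale. Both female pools lay above both male pools for 9 (37.5%, against 19.2%) and the reverse held for 8 (33.3%, against 22.8%). GTSF1, counted among the 2 and among the 8, had a bird protein as NR match and passed the filter through the male pools alone. Whether its level is frog expression was not tested.

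Chromatin silencers were well expressed, with 19 of the 21 found passing the filter. CBX3, a heterochromatin protein, was listed at 114, 114, 103 and 113 FPKM in F1, F2, M1 and M2. MPHOSPH8, a reader of methylated histone H3 in the silencing complex HUSH, stood at 66.9, 55.4, 56.8 and 58.9 FPKM, and PPHLN1, another part of HUSH, at 23.1, 25.5, 27.7 and 27.2 FPKM. CBX1, also a heterochromatin protein, stood at 24.2, 25.4, 24.5 and 28.1 FPKM. None of these passed the test between the sexes. DNMT1, the DNA methyltransferase that copies methylation after replication, was listed at 10.6, 11.6, 16.0 and 17.2 FPKM, without overlap of the sexes (log2 difference -0.56, SE 0.13, adjusted p = 0.233 in limma). SETDB1, the histone methyltransferase that many of these factors recruit, stood at 9.35, 9.49, 10.2 and 11.2 FPKM.

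The piRNA pathway silences elements in the germ line through PIWI proteins and small RNAs, and few of its genes passed the filter. Of 17 genes found, 3 passed it, TDRKH, TDRD7 and GTSF1, each read from its most abundant unigene. Over all unigenes of all listed silencing genes, 27 passed. TDRKH, a Tudor protein of piRNA maturation, was listed at 12.5, 10.5, 9.10 and 9.80 FPKM in F1, F2, M1 and M2, and TDRD7, a Tudor protein of RNA granules, at 7.46, 5.86, 8.18 and 8.25 FPKM. PIWIL2, a PIWI protein, was listed at 0, 0.735, 0.728 and 1.82 FPKM on a unigene of 334 bases. GTSF1, a cofactor of PIWI proteins, was listed at 0 in both female pools, 1.09 in M1 and 1.77 in M2 (adjusted p = 0.112 in limma). For 10 of the 17 genes, GTSF1 among them, the leading unigene had a bird protein as NR match. All 10 stood at 0 in F1 and F2 and above 0 in M1 and M2. Of the 933 bird-matched unigenes of 1000 bases or more, 836 were at 0 in both female pools and 930 above 0 in both male pools. Several of the 10 were shorter than that, and shorter bird-matched unigenes were not counted. Whether the levels of these 10 are frog expression was not tested, and no difference between the sexes is read from them.

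Of the factors that act on element RNA or its copies, 5 of 7 listed genes were found and 2 passed the filter. ADAR, an editor of double-stranded RNA, was listed at 4.28, 4.25, 3.14 and 2.69 FPKM in F1, F2, M1 and M2. SAMHD1, which lowers the supply of nucleotides for reverse transcription in mammals, stood at 1.81, 2.80, 1.20 and 1.43 FPKM. In both the female pools lay above the male pools, with log2 differences of 0.48 (SE 0.20) and 0.61 (SE 0.31) and adjusted p values of 0.464 and 0.537 in limma. MOV10, an RNA helicase that restrains LINE-1 in human cells, was listed at 0.335, 0.305, 1.90 and 0.858 FPKM and did not pass the filter.

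The tissue of the pools was checked with marker genes summed by list. The 5 neuron markers summed to between 1395 and 1731 FPKM and the 4 myelin markers to between 841 and 1186 FPKM in the 4 pools. Pituitary hormone genes ran from 69.0 FPKM in F1 to 5788 in F2 and skeletal muscle markers from 2.89 in F1 to 332 in F2, with the sexes overlapping in both. Astroglia markers summed to 1483, 1437, 973 and 1097 FPKM in F1, F2, M1 and M2 and red blood cell markers to 392, 287, 93.5 and 46.1 FPKM, both higher in females without overlap. The single genes of these lists did not all follow their sum. GLUL (1005, 982, 556 and 619 FPKM) and SLC1A3 were higher in females without overlap. FABP7 (217, 224, 225 and 266 FPKM) was higher in males, and SLC1A2 overlapped. HBB (256, 131, 1.18 and 2.19 FPKM) and HBA1 were higher in females without overlap. HBA2 was higher in males, and ALAS2, SLC4A1 and HBG1 overlapped. Germ cell markers, 8 of 9 of them found, summed to 9.03, 7.57, 19.7 and 13.5 FPKM, higher in males without overlap. That sum includes unigenes with a bird protein as NR match, among them those of DAZL, DDX4 and DMRT1, which stood at 0 in F1 and F2. Without them it was 9.03, 7.38, 14.7 and 7.999 FPKM, and the sexes overlapped. Fewer cells of a type and less RNA per cell cannot be told apart in such pools, and the part of these markers in the levels of the elements was not tested.

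The length limit of 1000 bases cut through a continuum. The description fitted 5184 unigenes of any length, of which 3676 were shorter and summed to 2865, 2687, 2948 and 2632 FPKM in F1, F2, M1 and M2. Just below the limit lay 2 LINE-1 ORF2 unigenes, comp117731_c0_seq1 (999 bases) at 0.335, 0.0962, 0.145 and 0.0476 FPKM and comp172929_c0_seq1 (998 bases) at 0.278, 0.221, 0.557 and 0.277 FPKM. At 1000 bases lay comp122804_c0_seq1, also LINE-1 ORF2, at 0.331, 0.383, 0 and 0.0546 FPKM, and comp241712_c1_seq2, a Tcb1 unigene, at 99.1, 101, 106 and 102 FPKM.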

How the data were processed

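RNA of *O. tormota* brain was measured by RNA-seq in 4 pools. Per the methods, the authors assembled the reads of all pools de novo (Trinity, then TGICL), used Bowtie2 to align reads to the unigenes and deposited estimated FPKM values. The submitters' processing notes list Salmon and edgeR beside cutadapt and FastQC, with no version, and which tool made the values is not settled. The deposited E-values come from BLASTx with a limit of 1e-05. No reference genome and no unigene sequence was used here, so none is shown. The table held 197684 unigenes after 1 line without values was left out. The FPKM of a pool summed to between 669260 and 717478. Counting error was not estimated for such values.

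Element classes came from the words of the Swiss-Prot description. Unigenes at 1 FPKM or more in 2 pools or more were tested: log2(FPKM + 0.5) was compared between the sexes by limma (version 3.58.1, R 4.3.3), by lmFit and eBayes, the latter using a mean-variance trend and the model holding sex alone, with Benjamini-Hochberg adjustment over all 51457 unigenes at a threshold of 0.05. There were 2 residual and 2.03 prior degrees of freedom. The study's own test, DEGseq, needs reads and was not run. Differences are female minus male. Python 3.11.15 with pandas 2.3.3 served for tables, and matplotlib 3.10.9 for figures. The elements, the silencing genes and the markers were chosen with earlier results of these data known. Named were up to 3 unigenes of highest mean FPKM per element family of at least 3 unigenes, the 6 per direction with the smallest p, 2 on each side of the length limit and up to 4 silencing genes per group. comp230034_c1_seq2, comp243478_c2_seq1, the unigenes found in 1 pool or at 0 in males, DNMT1, SETDB1, GTSF1 and MOV10 were named after their values were seen. The alternatives were other added numbers, scalings and filters, other lengths and matches, a replicate block and leaving out each pool.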

Additional observations from a re-analysis of the deposited data

How the results depend on the processing

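With other added numbers, scalings and filters, 0 unigenes were called. Without a trend 1251 unigenes and 1 element were called, and with a pool left out from 0 to 1385 unigenes, 1373 of them without M1 and 1385 without M2, and 0 elements. Silencing genes called numbered from 0 to 1 when a pool was left out, GTSF1 being called without M1 (adjusted p = 0.0342) and without M2 (adjusted p = 0.0221). With a pool left out, 1 sex is a single pool that is assumed to vary like the other. The GTSF1 unigene had a bird protein as NR match, and whether its level is frog expression was not tested. At an unadjusted p under 0.05, elements higher in females numbered 22 and those higher in males 52 without a filter, 1 and 5 at a mean of at least 5 FPKM, and 12 and 30 without a trend. With a pool left out they ran from 4 (without F1 and without M2) to 10 in females and from 15 (without M1) to 26 in males. The median difference of the elements was 0.015 under quantile normalization and ran from -0.11 without F1 to 0.041 without F2. The mean share of elements above 0 was 90.1% from 500 bases on, 98.9% from 2000 bases on and 77.4% at any length, and the share was 91.0% at 0.1 FPKM or more and 26.0% at 1 FPKM or more. Under each alternative the log2 ratio of the summed levels moved by less than the spread between pools, but it turned sign when scaled to the FPKM of the pool (0.011), without F2 (0.0069) and without M1 (0.019). Taking 1 unigene per assembly subcomponent removed no element, since each had its own, and so tests nothing. Taking 1 per whole component was not tried. Without the 3 Midline-1 unigenes, a choice made after seeing the data, the median difference was -0.05.

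Of 605 alternative values of 49 single differences, 596 kept their direction and their side of the threshold and 3 passed it, GTSF1 without M1 and without M2 and comp244235_c1_seq2 without a trend. The other 6 turned direction, all in abundant unigenes near 0 when F1 or M2 was left out: the log2 difference ran from -0.059 to 0.069 for comp244865_c1_seq1, from -0.11 to 0.11 for comp245501_c3_seq1 and from -0.051 to 0.17 for comp245099_c0_seq1. The replicate numbers name the pools and do not pair them: deviations of same-numbered pools correlated at -0.109 over 51457 unigenes. With the replicate block, 0 unigenes were called, and 6 elements on the female and 17 on the male side had an unadjusted p under 0.05, against 7 and 28 without it. A block with the numbers crossed, chosen after seeing the data, gave 0 calls and 6 and 21 elements. Read counts behind single FPKM values were not used here. Whether elements listed near 0 differ from elements without RNA was not tested.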
